A study of Mus musculus with 24 samples.

Results

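Total H2AX was compared between mouse cell clones that the labels call SIRT7-HY and clones that lack SIRT7 (SIRT7-KO). The comparison takes 4 of the 24 samples of the series, 2 libraries per group, and every bin of 1 Mb on chromosomes 1 to 19 that held a mean of at least 100 reads. This left 2414 of the 2473 autosomal bins, and of 2738 bins in the table as a whole. The series profiled H2AX and its phosphorylated form γH2AX by chromatin immunoprecipitation with sequencing (ChIP-seq) to study SIRT7 and the silenced X chromosome of female cells. All clone groups were female cells of a C57BL6/CAST hybrid background with the cell type label TTF, and per the labels all were irradiated with 5 Gy of X-rays and given a recovery of 30 minutes, so no test here sets irradiated against unirradiated cells. The HY group consists of clones c5 and c7, and the KO group of clones c22 and c9. A further group, labelled SIRT7-KO + SIRT7-WT, consists of the KO clones c22 and c9 carrying SIRT7-WT, and is called here the KO clones with SIRT7-WT. The sources used here do not explain the abbreviation HY, and do not say which of the columns named replicate 1 and replicate 2 holds which clone. Each library is thus 1 clone, and the spread between replicates is a spread between clones.

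H2AX is a variant of histone H2A that is built into nucleosomes throughout the genome, and the kinases ATM, ATR and DNA-PK phosphorylate it around DNA double-strand breaks to give γH2AX. SIRT7 is an NAD-dependent deacylase of the nucleus, concentrated in the nucleolus, that acts on histones and takes part in genome stability. The reads of a bin depend on how much H2AX its chromatin holds and on how many copies of the bin the cells carry. Without input DNA of the clones, which is not analysed here, these cannot be told apart.

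The 4 libraries held 106932394 to 143962776 reads, with a median of 34944 to 48411 per autosomal bin, so counting error was small against the spread between clones, whose coefficient of variation was 10.6% over bins. Levels are given in reads per 1000000 reads (CPM) on library sizes scaled by TMM, and differences as log2 values, HY minus KO. A bin or chromosome is said to pass where the adjusted p of edgeR's quasi-likelihood test, with Benjamini-Hochberg adjustment over all bins or all chromosomes, was below 0.05. Unless another tool is named, adjusted p-values are those of this test. The cell type label could not be checked against marker genes, since H2AX reads per bin do not report expression. In the bin that holds Sirt7 (chromosome 11, 120000001 to 121000000, mm10), total H2AX was 1130 and 1312 CPM in the HY clones and 749 and 923 in the KO clones. The HY libraries were the higher, without overlap. A bin of this size, in which 46 protein-coding genes start, cannot show whether Sirt7 itself is deleted, so it does not check the labels.

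The clearest difference was a lower share of H2AX reads on chromosome 15 in the HY clones. Chromosome 15 took 3.68% and 4.62% of autosomal reads in the HY clones, against 5.90% and 6.42% in the KO clones. The groups did not overlap, and the HY libraries differed more from each other than the KO libraries did. The mean was 4.15% ± 0.665 in HY and 6.16% ± 0.366 in KO (SD, n = 2 each), a log2 difference of -0.57 (SE 0.123, adjusted p = 0.0142). Chromosome 15 was the only one of 19 to pass (5.26%, with 3 of 19, 15.8%, at an unadjusted p below 0.05). Over the alternatives tried, its log2 difference ranged from -0.75 to -0.42 and its adjusted p from 8.57e-05, in DESeq2's test, to 0.205 in edgeR's. The call was lost without HY replicate 1 (-0.42, adjusted p = 0.205) and without KO replicate 2 (-0.51, adjusted p = 0.0711).

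**Figure D1:**
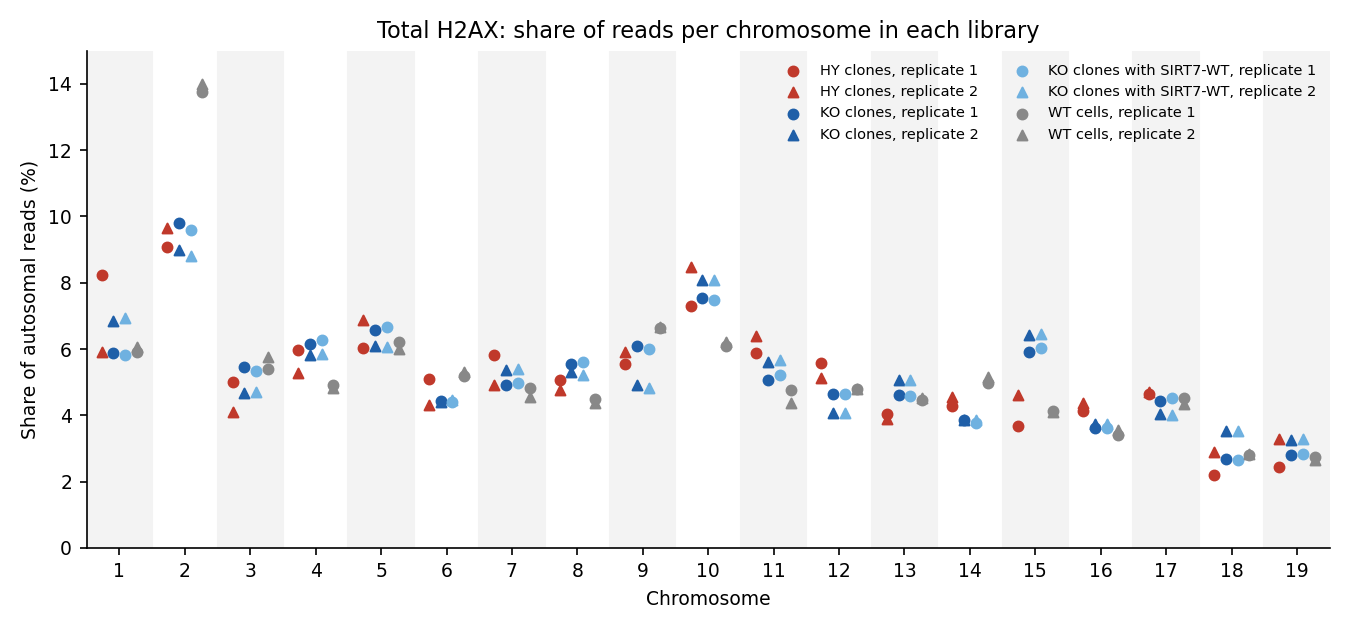
Share of autosomal H2AX reads (%, y axis) on each of the 19 autosomes (x axis). Each point is 1 library, coloured by group, with circles for replicate 1 and triangles for replicate 2, and on chromosome 15 the HY clones lie at 3.68% and 4.62%, below the KO clones at 5.90% and 6.42%.

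The shares of 7 further chromosomes separated the groups without passing the test. Those of 5 chromosomes were higher in both HY libraries than in both KO libraries, those of 3 were lower, and 11 overlapped. Chromosome 12 took 5.58% and 5.13% in HY and 4.64% and 4.07% in KO (log2 difference 0.30, SE 0.117, adjusted p = 0.179). Chromosome 13 took 4.05% and 3.88% in HY and 4.63% and 5.05% in KO (-0.29, SE 0.11, adjusted p = 0.179). Both are about as far apart between groups as the clones of a group can be on other chromosomes. Chromosomes 16 (0.21), 11 (0.20) and 14 (0.20) had an adjusted p of 0.357 each, chromosome 17 (0.14) one of 0.502 and chromosome 8 (-0.14) one of 0.475.

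Within a group the clones themselves differed by whole chromosomes. Chromosome 1 took 8.22% of autosomal reads in HY replicate 1 and 5.90% in HY replicate 2, a log2 difference of 0.48 between clones. Chromosome 19 took 2.45% and 3.30% in the same libraries (-0.43), and chromosome 18 took 2.21% and 2.90% (-0.40). Replicate 1 was thus high on chromosome 1 and low on chromosomes 18 and 19. Over the 19 chromosomes, the median size of this difference was 0.174 in HY and 0.126 in KO, and 8 and 5 chromosomes exceeded 0.2. Chromosome 18 had a log2 difference between groups of -0.28, close to that of chromosome 13, but took 2.69% and 3.51% in the KO clones, so its groups overlapped (SE 0.207, adjusted p = 0.49).

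Wild-type (WT) cells in the same table, which were not part of the fit, place the groups against libraries whose labels name no clone. WT CPM come from a TMM scaling of WT and clone libraries together, and clone CPM from a scaling without WT. WT and clone CPM are thus not on exactly the same scale. WT replicate 2 repeats, in 2473 of 2473 autosomal bins, a column of the series' other table whose name ends in NT. The labels of the WT sample state X-rays, so its treatment is uncertain. In WT, a bin of chromosome 2 (98000001 to 99000000) held 62025 and 66287 CPM against 12003 to 15340 in HY and KO, so shares relative to WT were taken without the 1% of bins with the highest counts (25 bins). On that scale chromosome 15 lay at -0.32 and 0.01 in the HY clones (log2, over the WT mean) and at 0.38 and 0.50 in the KO clones. The KO clones thus stood above WT, while HY replicate 2 stood at its level and HY replicate 1 below it. On chromosome 12 it was the HY clones that stood near WT (0.11 and -0.01) and the KO clones below it (-0.15 and -0.34). The order was the opposite on chromosome 13, where HY lay at -0.26 and -0.32 and KO at -0.06 and 0.07.

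Of the 2414 bins, 78 passed (3.23%), 12 of them higher in HY (0.497%) and 66 lower (2.73%). All 66 lower bins lay on chromosome 15, which has 101 tested bins, and the 12 higher bins lay near the distal ends of chromosomes 11 and 12, 6 on each. The adjusted p of the 78 bins ran only from 0.0454 to 0.0499. All 78 calls were lost without HY replicate 1 and without KO replicate 2, and 0 passed with the spread of all 12 clone libraries, with DESeq2 size factors or at a minimum mean of 10000 reads. At an unadjusted p below 0.05 there were 283 bins (11.7%). The log2 difference had a median of 0.02 over all bins and an SD of 0.208.

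**Figure D2:**
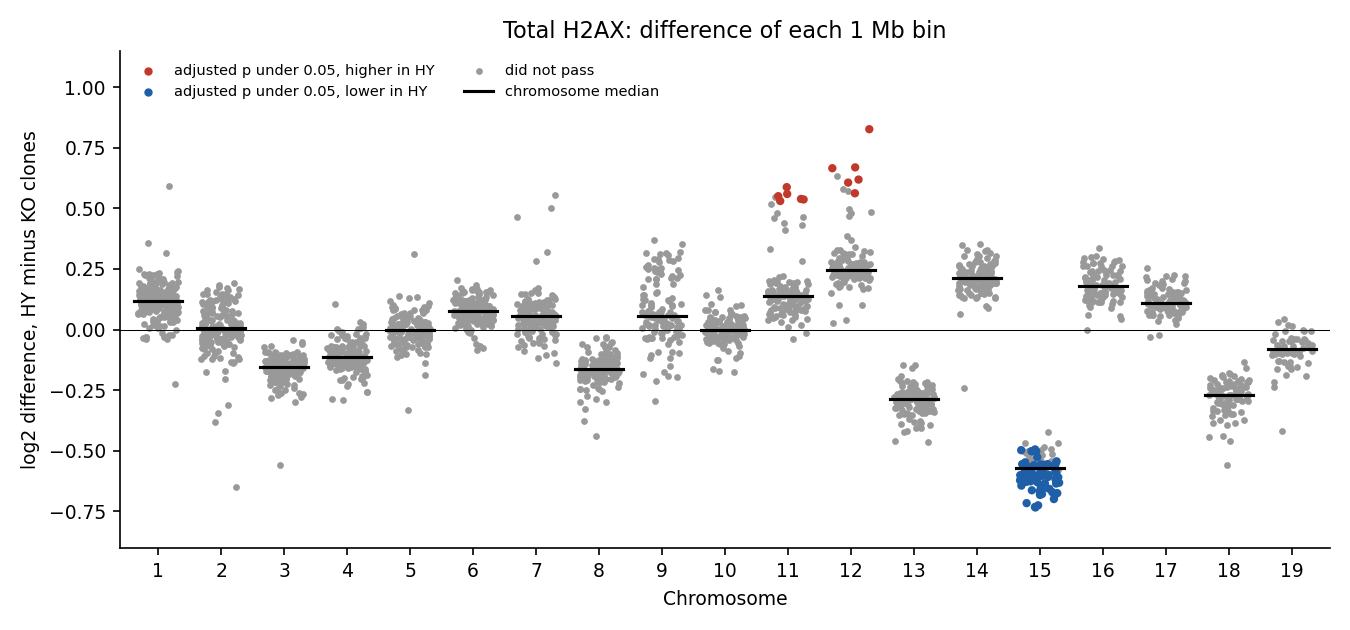
The log2 difference in total H2AX between HY and KO clones (y axis) of each 1 Mb bin, by chromosome (x axis, positions within a chromosome spread at random). Blue and red points passed at an adjusted p below 0.05, black lines are chromosome medians, and the passing bins are 66 of chromosome 15 and 12 of chromosomes 11 and 12.

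Along chromosome 15 every bin was lower in HY. The log2 difference of its 101 bins ranged from -0.73 to -0.42 with a median of -0.57, and both HY libraries were below both KO libraries in 101 of 101 bins, against 17.3% of all bins tested. The longest run of adjacent passing bins was 11 bins from 3000001 to 14000000, at the centromeric end. Next were 10 bins from 39000001 to 49000000 and 8 bins from 50000001 to 58000000. The mean differences of these runs were -0.60, -0.62 and -0.64. Separation along a whole chromosome was not particular to chromosome 15. On chromosome 13, where no bin passed, both HY libraries were below both KO libraries in 118 of 118 bins (median -0.29). On chromosome 14 both were above in 120 of 122 bins (median 0.21), against 19.5% of all bins tested. Every bin of chromosomes 3, 8 and 18 also had a log2 difference below 0. On chromosome 8 both HY libraries were below both KO libraries in 91 of 127 bins. On chromosomes 3 and 18 this held in only 12 of 157 and 12 of 88 bins, against 17.3% of all bins tested.

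The lowest bin was 41000001 to 42000000, with Oxr1, a gene of the defence against oxidative damage, and Zfpm2, a cofactor of GATA factors. It held 228 and 272 CPM in HY and 418 and 414 in KO, which is 250 ± 30.7 against 416 ± 2.42 (SD, n = 2 each), a log2 difference of -0.73 (SE 0.135, adjusted p = 0.0454). The neighbouring bin from 42000001, with Angpt1, a ligand of the endothelial receptor Tie2, held 191 and 197 CPM in HY and 332 and 311 in KO (-0.73). The HY libraries lay close together in this bin, and further apart in the one before it. The bin of Myc, the growth-promoting transcription factor (61000001 to 62000000), held 199 and 248 CPM in HY and 345 and 372 in KO (-0.68, SE 0.143, adjusted p = 0.0454). In WT it held 325 and 361 CPM, above both HY clones and near the KO clones.

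The other bins among the 10 lowest lay between -0.72 and -0.67. They hold Zfpm2 again (40000001), Cpq and the cell surface proteoglycan gene Sdc2 (33000001), Ncald and the epithelial transcription factor gene Grhl2 (37000001), and the Wnt-enhancing ligand gene Rspo2 with Emc2 (43000001). The remainder hold the protease gene Adamts12 with Npr3 (11000001), the potassium channel gene Kcnq3 with the thyroglobulin gene Tg (66000001), and Sntb1 with the collagen gene Col14a1 (55000001). In these 7 bins, as in the 3 above, HY replicate 1 was the lowest of the 4 libraries.

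**Figure D3:**
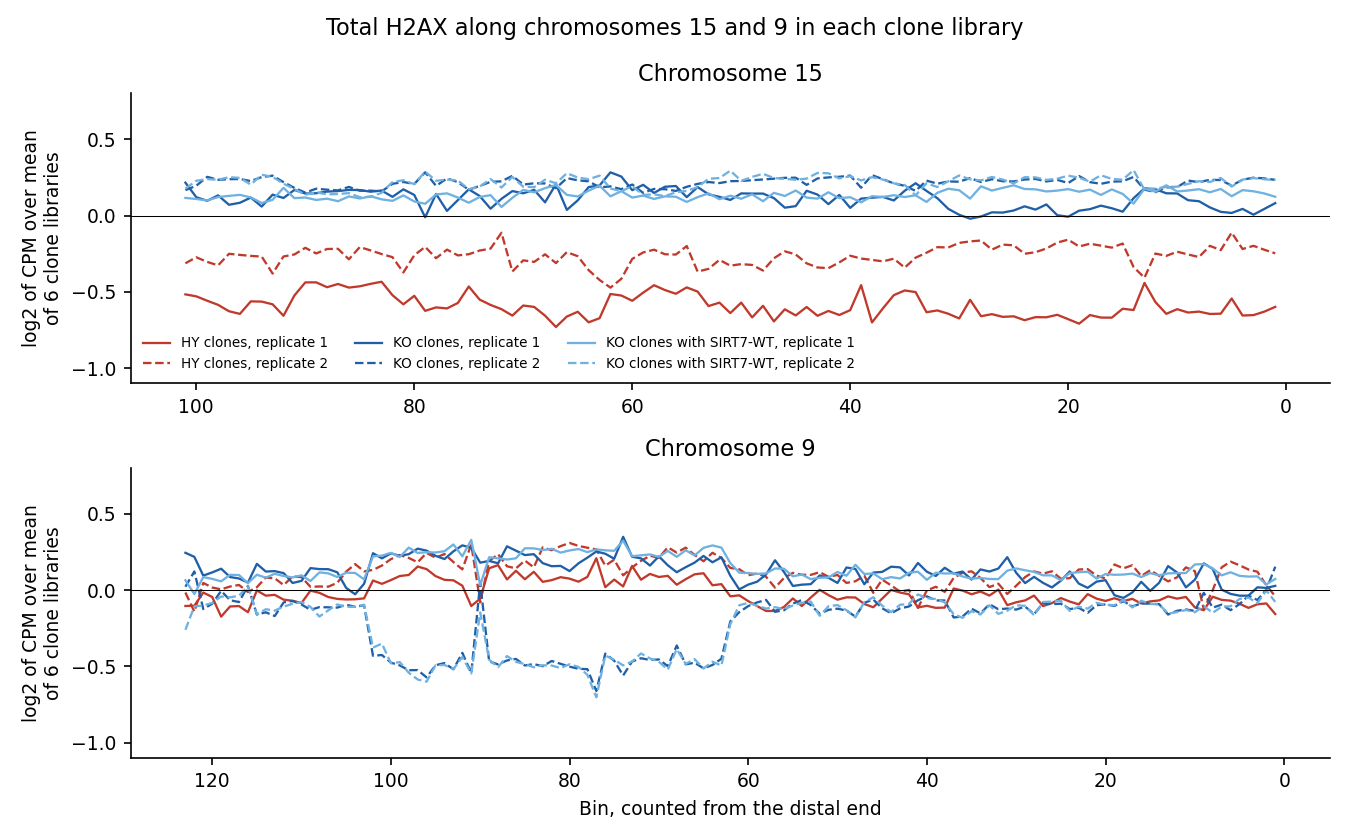
Total H2AX along chromosomes 15 (top) and 9 (bottom), as log2 of each library's CPM over the mean of the 6 clone libraries (y axis), by bin counted from the distal end (x axis). The HY libraries run below all others along the whole of chromosome 15, and on chromosome 9 replicate 2 of the KO clones, with and without SIRT7-WT, drops in a stretch of 40 bins.

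Distal chromosome 12 carried the highest bins. From 110000001 to the end (11 bins) the mean level was 650 and 618 CPM in HY and 439 and 404 in KO, with 501 and 471 in WT, so that both HY clones lay above and both KO clones below the WT libraries. The 107 bins before it averaged 445 and 421 CPM in HY, 385 and 340 in KO, and 396 and 401 in WT. The median log2 difference was 0.56 in the distal stretch and 0.24 before it, and all 11 distal bins were without overlap, against 84 of the 107 others. HY above KO without overlap was seen in 19.5% of all bins tested. The stretch was chosen after its values were seen.

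The highest bin of all, 115000001 to 116000000, lies in the immunoglobulin heavy chain locus (Igh) and holds 42 variable segments and no start of a protein-coding gene. Its level was 294 and 265 CPM in HY, 180 and 136 in KO, and 333 and 369 in WT. Both groups were thus below WT, the KO clones further. The log2 difference of HY over KO was 0.83 (SE 0.158, adjusted p = 0.0454, and 0.65 to 1.02 with any 1 library left out). The preceding bin, with 51 variable segments of the same locus, had the smallest difference of the stretch (0.37, adjusted p = 0.27). Next highest were 111000001 to 112000000 with the signalling adaptor gene Traf3 and the kinase gene Cdc42bpb (1330 and 1287 CPM in HY, 842 and 804 in KO, 0.67), and 112000001 to 113000000 with Tdrd9 and the RNA polymerase III factor gene Brf1 (1355 and 1356 in HY, 880 and 829 in KO, 0.67). The bins with Ptprn2 and Rapgef5 (117000001, 0.62), with Pacs2 and the chromatin remodelling gene Mta1 (113000001, 0.61) and with Ptprn2 and Esyt2 (116000001, 0.56) also passed.

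Distal chromosome 11, where Sirt7 lies, was the other raised stretch. From 107000001 to the end (15 bins) the mean level was 772 and 857 CPM in HY and 527 and 617 in KO, with 566 and 481 in WT. The 104 bins before it averaged 444 and 498 CPM in HY and 406 and 453 in KO. The groups were apart in the distal stretch and interleaved before it. The median log2 difference rose from 0.13 to 0.52 across this point. All 15 distal bins had HY above KO without overlap, against 43 of the 104 others and 19.5% of all bins tested. This stretch too was chosen after its values were seen.

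The bins of distal chromosome 11 that passed include the last one, 121000001 to 122000000, with Tbcd, a tubulin folding cofactor, and B3gntl1. It held 689 and 771 CPM in HY and 457 and 514 in KO (0.59, SE 0.125, adjusted p = 0.0454). The bins with Sdk2 and Ttyh2 (114000001, 0.56), with Rbfox3 and Dnah17 (118000001, 0.55), with Rab37 and the growth factor adaptor gene Grb2 (115000001, 0.54) and with Rptor, a subunit of mTOR complex 1, and Rnf213 (119000001, 0.53) passed at an adjusted p of 0.0481. The Sirt7 bin between these had a like difference of 0.55 but a larger error and did not pass (SE 0.16, adjusted p = 0.0961). Here the KO clones with SIRT7-WT departed from the KO clones. They held 1111 and 1493 CPM of total H2AX, against 749 and 923 in KO, 1130 and 1312 in HY, and 705 and 563 in WT. In its neighbours from 118000001, 119000001 and 121000001 the KO clones with SIRT7-WT were at 732 and 791, 822 and 885, and 487 and 512 CPM, nearer to the KO clones than to the HY clones. The test of KO clones with SIRT7-WT against KO clones called 0 bins in edgeR's quasi-likelihood test, the Sirt7 bin included, with 1 at an unadjusted p below 0.05 (0.0414%). Both groups are clones c22 and c9. With the replicate number as a block the Sirt7 bin passed (0.63, SE 0.0892, adjusted p = 4.55e-09), although no label ties the numbers to clones. That p-value comes from 2 libraries per group and leans on spread shared across bins.

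**Figure D4:**
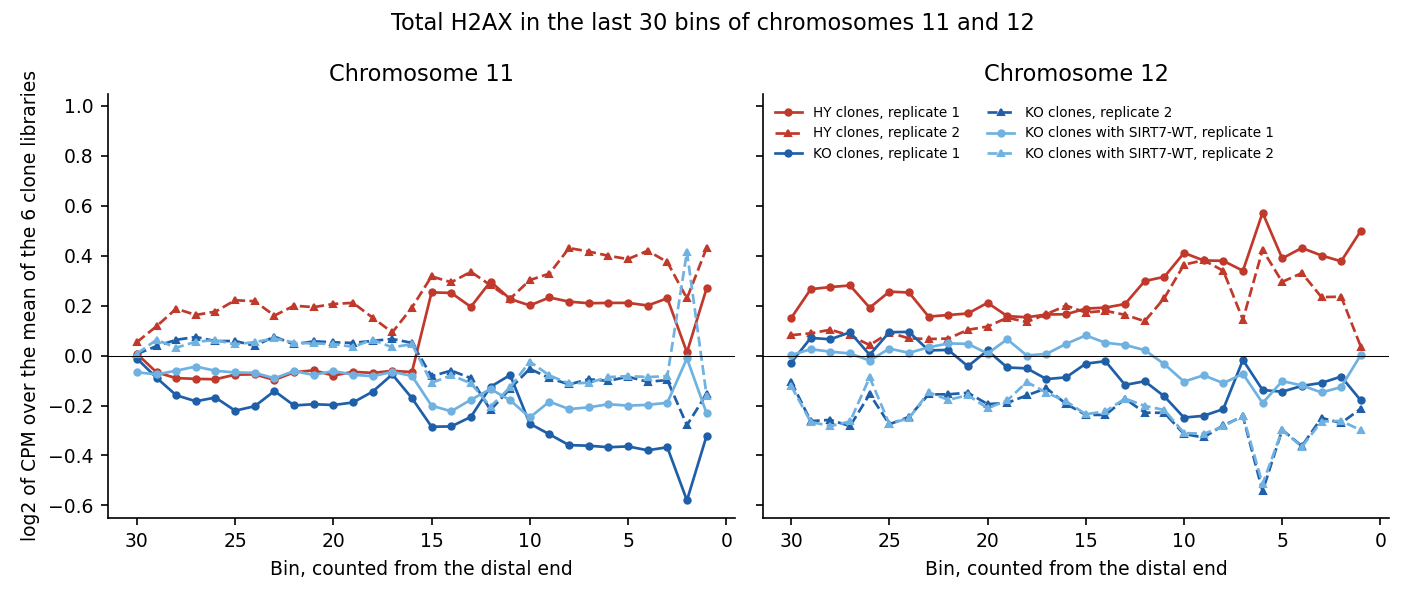
Total H2AX in the last 30 bins of chromosomes 11 (left) and 12 (right), as log2 of each library's CPM over the mean of the 6 clone libraries (y axis), by bin counted from the distal end (x axis). Both HY libraries stand above the KO libraries in the last 15 bins of chromosome 11 and the last 11 of chromosome 12, and the KO clones with SIRT7-WT peak in the second last bin of chromosome 11, which holds Sirt7.

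Smaller stretches, also picked by their values, separated the groups without passing. The 3 bins from 20000001 to 23000000 of chromosome 7, where 65 of the 78 protein-coding genes that start are Vmn1r vomeronasal receptor genes, averaged 249 and 178 CPM in HY, 148 and 152 in KO, and 281 and 282 in WT. The KO clones lay lowest and WT highest, and the log2 differences were 0.46, 0.50 and 0.55 (lowest adjusted p = 0.0806). The 3 bins from 18000001 to 21000000 of chromosome 12 averaged 502 and 496 CPM in HY against 372 and 286 in KO and 384 and 330 in WT (0.57 to 0.63, lowest adjusted p = 0.059). Where gene copies are alike in sequence, their reads may be shared between places, and whether this touched these bins was not tested.

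On chromosome 9 a single KO clone stood apart. Chromosome 9 from 23000001 to 63000000 (40 bins) averaged 320 CPM in KO replicate 2, against 494 in KO replicate 1 and 449 and 493 in the HY clones. KO replicate 2 was below KO replicate 1 by a median of 0.68 on the log2 scale in this stretch (-0.68) and by 0.17 in the 83 bins around it (-0.17). The KO clones with SIRT7-WT repeated it, with 505 and 314 CPM in replicates 1 and 2. A bin inside the stretch, 35000001 to 36000000 with Cdon and St3gal4, was an exception, at 1930 and 1762 CPM in KO replicates 1 and 2, with 8911 and 9692 in WT. The median HY minus KO difference of the stretch was 0.25. Both HY libraries were above both KO libraries in 0 of 40 bins, against 19.5% of all bins tested. The bin with H2ax, the gene of H2AX itself, lies within it (44000001 to 45000000) and held 723 and 832 CPM in HY and 761 and 487 in KO (0.32, SE 0.231, adjusted p = 0.65). Atm (53000001, 0.21) and Chek1 (36000001, 0.27), kinases of the damage response, lie there as well and did not pass.

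In chromosome 2 from 82000001 to 85000000 the same library stood high. KO replicate 2 averaged 352 CPM in these 3 bins, against 255 in KO replicate 1 and 210 and 229 in HY. Both HY libraries were below both KO libraries in 3 of 3 bins, against 17.3% of all bins tested, and none passed. These bins were picked by their values. The bin with the integrin gene Itgav (83000001 to 84000000) held 462 CPM in KO replicate 2, 264 in KO replicate 1 and 219 and 244 in HY (-0.65, SE 0.251, adjusted p = 0.31). The bin with Naaladl2 (chromosome 3, 24000001 to 25000000), which is from the list of long fragile-site genes, held 153 and 75.7 CPM in HY and 190 and 146 in KO (-0.56, adjusted p = 0.406). Its low value belonged to HY replicate 2.

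The antibody against γH2AX was used on separate libraries of the same clones. With it, chromosome 15 took 3.68% and 4.54% of autosomal reads in HY and 5.81% and 6.19% in KO, again without overlap (-0.54, SE 0.132, adjusted p = 0.00235). It was the only chromosome to pass (5.26%), and it did not pass without γH2AX HY replicate 1 or γH2AX KO replicate 2. No bin passed in γH2AX in edgeR's quasi-likelihood test (0%), with 187 at an unadjusted p below 0.05 (7.75%). Its bins on chromosome 15 were nevertheless all below KO without overlap, 101 of 101, against 18.6% of all bins. Across the 2414 bins the HY minus KO difference of H2AX and that of γH2AX had a Pearson correlation of 0.909, and of 0.871 over the 2313 bins outside chromosome 15. These points share clones and their neighbours, so this describes the libraries and is not a test. The sign was the same in 2095 of 2414 bins (86.8%), the 78 that passed in H2AX among them.

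A direct test of whether the H2AX difference departed from the γH2AX difference called 0 of 2414 bins and 0 of 19 chromosomes (0%) in edgeR's quasi-likelihood test, with 5 bins at an unadjusted p below 0.05 (0.207%) and 0 by DESeq2. For chromosome 15 the departure was -0.03 (SE 0.174) in this fit, which does not pair libraries by replicate number. With the number as a block it was -0.03 (SE 0.0265, adjusted p = 0.934), although no label ties the numbers to clones. The lack of a call does not show that the antibodies gave equal differences. The 5 bins were the last of chromosomes 5, 6, 8 and 13 and the second last of chromosome 8. In each the HY minus KO difference was above 0 in γH2AX (0.61 to 1.08) and between -0.33 and 0.04 in H2AX. In the bins of chromosomes 8 and 13 the HY and KO libraries overlapped in γH2AX. That of chromosome 13 held 122 and 317 CPM in HY and 148 and 140 in KO. The second last of chromosome 8 held 1041 and 401 CPM in HY and 462 and 427 in KO. The bin of chromosome 5 had no overlap, with 861 and 397 CPM in HY and 369 and 309 in KO. Nor had that of chromosome 6 (471 and 331 CPM in HY, 256 and 211 in KO). At the end of chromosome 8, the bin that starts at 129000001 and holds Ccdc7b had 417 and 126 CPM of γH2AX in HY and 135 and 122 in KO, but 60.6 and 66.3 CPM of H2AX in HY and 77.1 and 73.5 in KO. The high γH2AX value was that of HY replicate 1. Over the last tested bins of the 19 chromosomes the departure was below 0 in 16, against 1179 of all 2414 bins. The median was -0.109 against 0.0025. This set includes 4 of the 5 bins and was looked at because of them, so the count is not a test. The departure was above 0 on chromosomes 3 (0.46), 11 (0.47) and 12 (0.09).

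**Figure D5:**
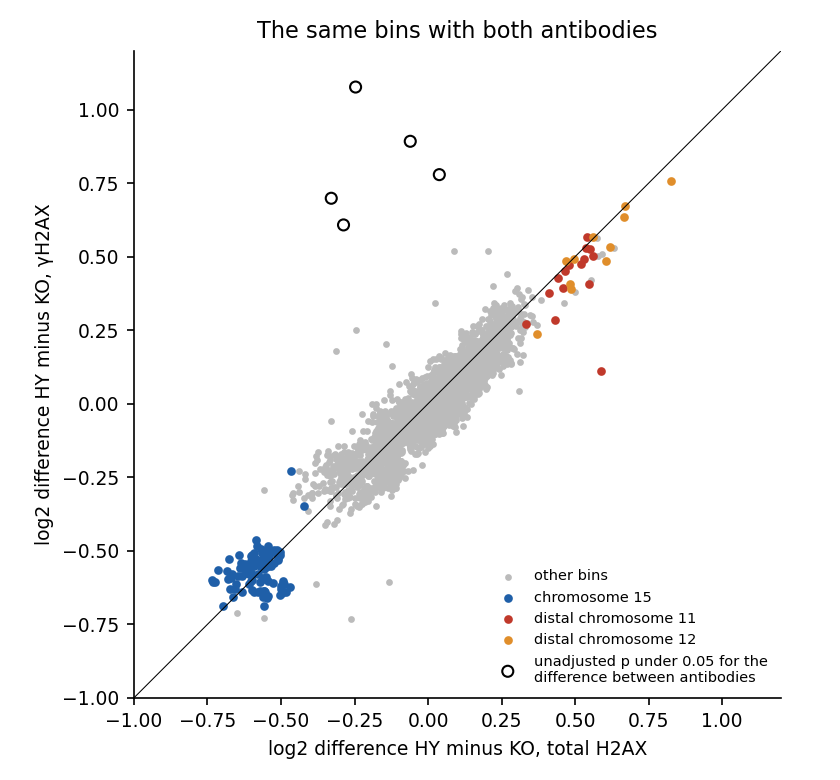
Log2 difference between HY and KO clones in γH2AX (y axis) against that in total H2AX (x axis) for 2414 bins, with the line of equality. Bins of chromosome 15 and of distal chromosomes 11 and 12 are coloured, open circles mark the 5 bins with an unadjusted p below 0.05 for the departure of H2AX from γH2AX, and the Pearson correlation over all bins was 0.909.

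Setting the HY clones against the KO clones with SIRT7-WT used other libraries of the KO clones and the same HY libraries, so the 2 comparisons are not independent. Chromosome 15 took 6.02% and 6.46% of autosomal reads in the KO clones with SIRT7-WT (-0.59 for HY, adjusted p = 0.0112), and 91 bins passed (3.77%), 9 higher (0.373%) and 82 lower (3.4%). The call on chromosome 15 and all 91 bins were lost without HY replicate 1, and the bins also without replicate 2 of the KO clones with SIRT7-WT. Against all 4 libraries of the KO clones, both HY libraries were higher in 405 bins (16.8%) and lower in 385 (15.9%).

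Genes of known function were read through their bins, from lists chosen for the tissue and treatment. In 12 of the 13 gene lists no bin passed, and in the list of growth control genes 1 of 16 bins passed, that of Myc, against 3.23% of all bins. Among 20 bins of DNA damage response genes the median log2 difference was 0.05, and 4 lay above and 4 below without overlap, against 19.5% and 17.3% of all bins. The lowest was that of Xrcc6, which encodes the DNA end-binding protein Ku70, on chromosome 15. It held 534 and 730 CPM in HY and 891 and 990 in KO (-0.57, SE 0.148, adjusted p = 0.0567), and Wrn, a helicase gene of chromosome 8, followed at -0.22. The highest were Chek1 (0.27) and Rnf168, a ubiquitin ligase of the break response (0.25), with an adjusted p of 0.674 and 0.475.

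Bins of the p53 pathway (12) had a median of 0.08 and ranged from -0.16 (Zmat3) and -0.14 (Cdkn2a) to 0.20 (Cdkn1a and Trp53). Growth control genes other than Myc ranged from -0.25 (Apc) to 0.27 (Mycn), with Rb1 at 0.20. The 5 bins of H2A variant genes ranged from -0.24 (Macroh2a1) and -0.23 (H2az1) to 0.20 (H2az2) and 0.32 (H2ax), and the 7 sirtuin bins from -0.28 (Sirt5) and 0.03 (Sirt1) to 0.16 (Sirt6) and 0.55 (Sirt7). Of the 4 Hox clusters, that of Hoxc9 on chromosome 15 was lower, at 618 and 819 CPM in HY and 986 and 1133 in KO (-0.56, adjusted p = 0.058), while Hoxd9 (-0.01), Hoxa9 (0.06) and Hoxb9 (0.10) lay near 0. The low bins of Myc, Xrcc6 and Hoxc9 all lie on chromosome 15.

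Fibroblast genes (13 bins) ranged from -0.20 (Vim) and -0.19 (Pdgfrb) to 0.24 (Twist1) and 0.32 (Thy1, in the bin of H2ax), with a median of 0.07. Imprinted loci (15 bins) ranged from -0.23 (Impact) and -0.04 (Snrpn) to 0.17 (Igf2r) and 0.38 (Dlk1 and Meg3, on chromosome 12, adjusted p = 0.205). Long fragile-site genes (22 bins) had a median of 0.02, from -0.56 (Naaladl2) and -0.31 (Dcc) to 0.23 (Fgf12) and 0.31 (Sdk1). The replication-dependent histone clusters lay at -0.30 (with H2bc4, chromosome 13) and -0.14 (with H2ac18), the bins of Lars2 and of the ribosomal RNA copy Rn18s-rs5 at -0.03 and 0.08, and the 7 housekeeping bins from -0.01 (B2m) and 0.03 (Eef1a1) to 0.15 (Gapdh) and 0.20 (Ppia). None of these bins passed.

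By position and gene content, 5 of 241 gene-rich bins passed higher and 0 lower, with a median of 0.08, and of 241 gene-poor bins 1 passed higher and 10 lower, with a median of -0.01. Of all bins tested, 0.497% passed higher and 2.73% lower, with a median of 0.02. Of 95 centromere-proximal bins, the first 5 of each chromosome, 5 passed lower, and of 95 distal bins 5 passed higher and 1 lower. The lower ones are those of chromosome 15, and the higher distal ones those of chromosomes 11 and 12.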

How the data were processed

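Raw read counts per bin of 1000000 bp, for H2AX and γH2AX ChIP-seq of the clones and of WT cells, were deposited by the authors as 1 table, with no normalization. Per the submitters' processing notes, the tools included Bowtie2 2.2.9, Trimmomatic 0.36 and FastQC 0.11.3 as well as MACS2 2.2.7.1, deepTools 2.4.2 and SAMtools 0.1.19, with build mm10; which tool made the counts is not given in the sources used here. Of 144 value columns, 128 were not used here. They include 6 input columns of the clones, whose names match no labelled sample, so levels over input are not analysed here.

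Bins of chromosomes 1 to 19 with a mean count of at least 100 were kept, which left out 59. The 6 H2AX libraries of the clones were fitted together in edgeR 4.0.16 (R 4.3.3; TMM, quasi-likelihood F test, Benjamini-Hochberg), so that the KO clones count in 2 groups in the estimate of spread. Chromosome sums were tested likewise, on the autosomal total. The departure of H2AX from γH2AX is an interaction term in a fit of all 12 clone libraries. DESeq2 1.42.0, other filters and scalings and left-out libraries were alternatives. The p-values measure only the spread between these libraries. The fits were tested on simulated data.

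Named bins are the 10 highest and the 10 lowest of those that passed, the Sirt7 bin with the last 4 bins of chromosome 11, and the extremes of each gene list. A bin's genes are its listed ones, then up to 2 protein-coding genes with the longest span (RefSeq, GRCm38). Of 139 listed genes, 137 lie in tested bins. Members and lists were chosen with earlier results of these data known.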

Additional observations from a re-analysis of the deposited data

Results flagged for a closer look

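In the bin that holds Sirt7, γH2AX stood at 2209 and 10400 CPM in replicates 1 and 2 of the KO clones with SIRT7-WT, libraries that the HY against KO comparison does not use. The KO clones had 608 and 439 CPM of γH2AX there, and the HY clones 737 and 653.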

How the results depend on the processing

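Of 78 bins that passed between HY and KO clones, 0 remained with the spread of all 12 clone libraries, with DESeq2 size factors (lowest adjusted p = 0.0619) and at a minimum mean of 10000 reads, and 16 passed with chromosome X included. By contrast 121 passed with only the 4 libraries compared, and 145 in DESeq2's test, 78 of them shared. With 1 library left out, 0 to 123 bins and 0 to 1 chromosomes passed. In γH2AX 0 to 1 bins and 0 to 1 chromosomes passed, and for the departure of H2AX from γH2AX 0 to 3 bins. For HY against the KO clones with SIRT7-WT, 0 to 126 bins and 0 to 1 chromosomes passed, and 0 bins with all 12 clone libraries. For the KO clones with SIRT7-WT against KO, 0 to 1 bins passed. The cause of these changes was not tested. Left-out libraries turned the direction of chromosomes 1 (-0.11 to 0.37), 2 (-0.065 to 0.060), 5 (-0.074 to 0.12), 6 (-0.039 to 0.21), 7 (-0.060 to 0.18), 9 (-0.089 to 0.22), 10 (-0.097 to 0.12) and 19 (-0.30 to 0.13), none of which passed. Without the 1% of bins with the highest counts, chromosome 2 stood at 0.035 and chromosome 10 at -0.0066.

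The HY and KO clones are different clones, so their numbers do not pair them. KO libraries with and without SIRT7-WT that share a number deviated together (r = 0.939 over bins), but no label ties the numbers to clones. With the number as a replicate block, 1 bin passed between them, that of Sirt7 (0.63, SE 0.0892, adjusted p = 4.55e-09), and 2 chromosomes, 2 (-0.029) and 19 (0.014). These calls come from 2 libraries per group and lean on spread shared across bins or chromosomes. For the departure of H2AX from γH2AX, the replicate block gave 0 bins and 0 chromosomes.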
